A study of Mus musculus with 12 samples.

Results

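Genes that mark endothelial cells, the cells that line blood vessels, were followed in the skin of mice with alopecia areata (AA) before and after topical baricitinib. The members are Cldn5, Pecam1, Cdh5, Esam, Kdr, Flt1, Tek, Tie1, Emcn and Egfl7, and every array probe set annotated with 1 of these symbols and no other gene was taken. These were 17 of the 45037 probe sets tested, for 10 of 18193 genes. Flt1 and Egfl7 had 4 probe sets each, Cdh5 had 2 and the other members had 1. For a single value per gene, the probe set with the highest mean stands for it, and all of its probe sets are reported.

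The mice were C3H/HeJ mice grafted with alopecic skin of the same strain, a model in which the recipients lose their hair. Treatment began after the disease was established, so no group is healthy skin. Baricitinib, an inhibitor of the kinases JAK1 and JAK2, was given to 3 mice and the vehicle alone to 3 others, and each mouse gave skin at week 0, before treatment, and at week 12. The 4 groups are therefore vehicle week 0, vehicle week 12, baricitinib week 0 and baricitinib week 12, with 3 arrays each. The mouse numbers in the labels tie the week 0 and week 12 arrays of an animal together, and replicate 1 at week 0 and replicate 1 at week 12 are the same mouse. The values are log2 levels from Affymetrix arrays normalized by robust multi-array average (RMA), on which a difference of 1 is a 2-fold difference. A level is compared only with the same probe set on other arrays, since probe sets differ in how brightly they bind. As a limited check of the labelled tissue, the 7 epidermal keratinocyte genes measured averaged between 12.1 and 12.8 on every array. No other tissue was measured beside them, so these levels do not identify skin by themselves.

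Endothelial cells form a barrier by joining to each other, and Cldn5 (claudin 5), Cdh5 (VE-cadherin), Pecam1 (CD31) and Esam are proteins of those junctions. Growth and upkeep of vessels run through receptor tyrosine kinases. Kdr and Flt1 are receptors for vascular endothelial growth factor (VEGF), of which Kdr carries most of the growth signal while Flt1 binds the ligand tightly and can be made as a soluble decoy. Tek (Tie2) is the receptor for angiopoietins and Tie1 is its partner. Emcn (endomucin) is a sialomucin of venous and capillary endothelium, and Egfl7 is a protein that endothelial cells secrete into the matrix around them. In skin, vessels supply the dermis, the fat beneath it and the hair follicles, around which the capillary network grows and shrinks with the hair cycle.

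Transcription factors of the ETS family, which recognise a GGAA core, are known to act at many endothelial genes. RefSeq start sites (build GRCm38.p6) gave 9 promoters for 7 of the 10 members, and Pecam1, Cdh5 and Esam had no entry. The 250 bases before the start are shown for the 3 members furthest above week 0 after baricitinib and for Flt1, the member that went the other way. Capitals mark each AGGAAG or CCGGAA on either strand, so that CTTCCT is AGGAAG read on the other strand, and no 2 matches overlapped. For Emcn and Flt1 the start is that of a transcript inside the span of the gene. The sequences run 5′ to 3′ on the strand of the gene, at chr16:18776597-18776846 (plus strand) for Cldn5, chr4:118489850-118490099 (minus strand) for Tie1, chr3:137340828-137341077 (plus strand) for Emcn and chr5:147726012-147726261 (minus strand) for Flt1.
Cldn5: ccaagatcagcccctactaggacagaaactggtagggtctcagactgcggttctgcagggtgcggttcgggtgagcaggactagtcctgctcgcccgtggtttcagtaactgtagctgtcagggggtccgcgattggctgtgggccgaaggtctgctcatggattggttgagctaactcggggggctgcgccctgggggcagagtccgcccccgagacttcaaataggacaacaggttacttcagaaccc
Tie1: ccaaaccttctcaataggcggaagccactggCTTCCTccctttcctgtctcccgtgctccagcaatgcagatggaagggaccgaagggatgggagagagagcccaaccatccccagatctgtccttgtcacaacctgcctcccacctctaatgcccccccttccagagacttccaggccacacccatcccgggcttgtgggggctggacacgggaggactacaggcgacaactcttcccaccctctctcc
Emcn: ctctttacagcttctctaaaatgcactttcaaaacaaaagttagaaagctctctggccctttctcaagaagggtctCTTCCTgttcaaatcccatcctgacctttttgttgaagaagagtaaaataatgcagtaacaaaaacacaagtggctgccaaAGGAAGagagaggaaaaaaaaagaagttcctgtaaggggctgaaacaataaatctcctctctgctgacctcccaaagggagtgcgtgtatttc
Flt1: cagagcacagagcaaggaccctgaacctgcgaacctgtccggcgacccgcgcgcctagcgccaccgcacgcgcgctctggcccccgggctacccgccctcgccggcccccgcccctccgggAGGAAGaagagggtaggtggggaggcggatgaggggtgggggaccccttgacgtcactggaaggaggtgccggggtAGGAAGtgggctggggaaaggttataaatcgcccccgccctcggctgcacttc
No match was present in the Cldn5 window, which says only that these letters are not in it. Tie1 held 1 match, 219 bases before the start, Emcn held 2, and Flt1 held 2, at 129 and 53 bases before it. In all, 6 of the 9 member promoters held at least 1 match, against 38.2% of the 32851 promoters in the table. At least 2 matches were present in 10.8% of all promoters. Flt1, which was lower after baricitinib, and Emcn, which was higher, thus had the same number of matches.

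Before the results, 2 features of the arrays bear on them. The probe sets for the 3′ and 5′ ends of the Gapdh control transcript differed by 0.84 to 4.29 log2 units between arrays, a measure that grows as RNA is shortened. It was 1.00 and 1.1 on baricitinib week 12 replicates 2 and 3 and 0.84 on vehicle week 0 replicate 1, and lay between 2.17 and 4.29 on the other 9 arrays. Separately, baricitinib week 0 replicate 2 and baricitinib week 12 replicate 1 had the lowest mean correlation with the other arrays, 0.941 and 0.946, and values without both are given with the results. Array medians lay between 5.16 and 5.35.

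After 12 weeks of baricitinib, most endothelial genes lay above their level at week 0, and the junction gene Cldn5 passed the test. Of the 10 genes, 9 were higher, against 48.6% of all genes, with a median log2 difference of 0.94 over the members and -0.02 over all genes. Flt1 was the exception, with lower levels on all 4 of its probe sets. In the vehicle mice 5 of 10 genes were higher at week 12 and 5 lower, against 57.8% of all genes higher, with a median of 0.02. Mean levels of the 10 genes on the baricitinib week 12 arrays were 6.95, 7.37 and 7.08, against 5.91 to 6.59 on the other 9 arrays. Baricitinib week 12 was the group with the highest mean for 9 of 10 genes, against 31.8% of all genes, and the lowest for Flt1, against 35.6%.

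By limma with Benjamini-Hochberg adjustment over all probe sets, 1 of 17 member probe sets was called higher at an adjusted p under 0.05 and 0 lower, where 0.362% of all probe sets were called higher and 0.875% lower. Without adjustment, at a p under 0.05, 9 member probe sets were higher and 2 lower, against 6.23% and 6.05% of all probe sets. The 9 came from 6 genes, since all 4 Egfl7 probe sets were among them, and the 2 lower ones were of Flt1. The 3 week 12 arrays lay above all 3 week 0 arrays for 6 of the 10 genes, against 8.94% of all genes. Without the 2 arrays of lowest correlation the median of the members was 1.04, with 1 probe set called. With the Gapdh difference as a covariate it was 0.95, with 3 called. Of all 45037 probe sets, 718 were called higher and 950 lower with this covariate, against 163 and 394 without it. Leaving out the 2 arrays gave 348 and 512. Because these are pieces of whole skin, more endothelial cells and more RNA of these genes per cell cannot be told apart.

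**Figure D1:**
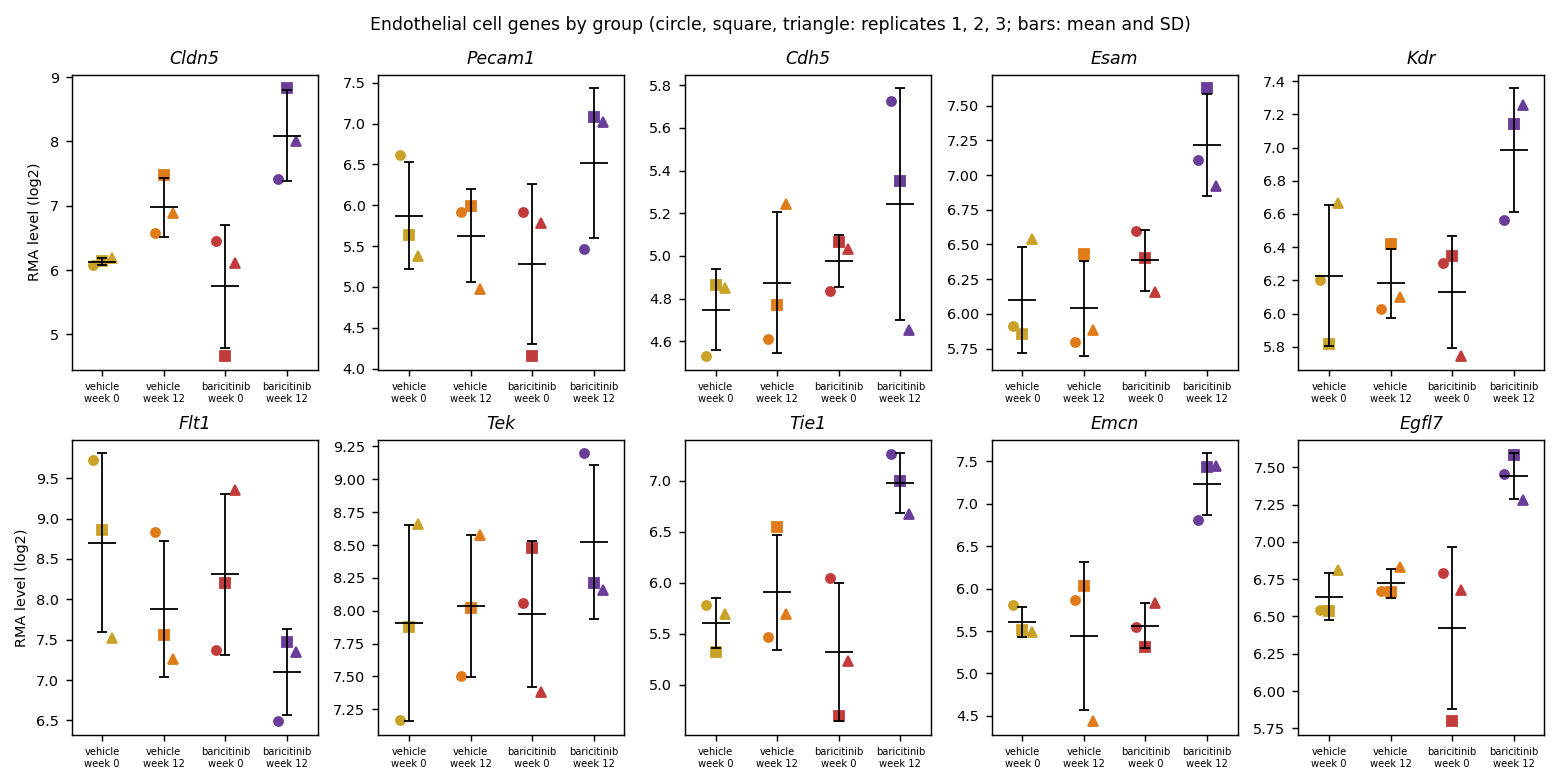
RMA level (log2) of each member's representative probe set on the 12 arrays, 1 panel a gene, with the groups on the x axis, points for arrays (circle, square and triangle for replicates 1, 2 and 3) and bars for the mean and SD of 3 arrays. Baricitinib week 12 has the highest mean in 9 of 10 panels and the lowest in the Flt1 panel.

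Cldn5 (chr16:18776847-18778262, probe set 1417839_at), the claudin that seals endothelial tight junctions, had the largest difference. Its levels were 6.46, 4.66 and 6.11 at baricitinib week 0 and 7.42, 8.83 and 8.0 at baricitinib week 12. In the vehicle mice they were 6.08, 6.13 and 6.18 at week 0 and 6.57, 7.47 and 6.88 at week 12. All 3 baricitinib week 12 arrays lay above all week 0 arrays, while 1 vehicle week 12 array lay above the lowest of them. Cldn5 rose in the baricitinib mice by 2.34 ± 0.47 (SE), or 5.06-fold, with a limma adjusted p of 0.03703. This SE is that of the limma fit, whose spread is shared by all 12 arrays, not that of the changes in the 3 mice. The rise varied among the mice, at 0.96, 4.17 and 1.89 in mice 1, 2 and 3. Against vehicle at week 12 the difference was 1.11, with an adjusted p of 0.403 by limma, and the change with baricitinib exceeded that with vehicle by 1.5, with an adjusted p of 0.772. Vehicle levels were themselves higher at week 12 than at week 0, with no overlap, and did not pass the test.

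The call for Cldn5 did not hold under every setting. With the difference unchanged at 2.34, the limma adjusted p was 0.1276 with the mouse as a fixed block, which compares the weeks within each animal, and 0.1838 with the baricitinib arrays alone in the fit. Leaving out 1 array kept the call in 4 of 12 cases. The difference was smaller, at 1.80 (limma adjusted p 0.07415) without baricitinib week 0 replicate 2 and 1.97 (0.148) without baricitinib week 12 replicate 2. It was 2.53 (0.1005) without baricitinib week 0 replicate 3 and 2.38 (0.1181) without baricitinib week 12 replicate 3. Leaving out a vehicle array kept it at 2.34, and the adjusted p was 0.06557 without vehicle week 0 replicate 2, and 0.05167, 0.0559 and 0.05623 without vehicle week 12 replicates 1, 2 and 3. Without the 2 arrays of lowest correlation Cldn5 was 2.13 higher, with an adjusted p of 0.02377.

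The other junction genes did not pass. Esam (chr9:37528089-37538319), an immunoglobulin-like adhesion molecule, had levels of 6.60, 6.40 and 6.16 at baricitinib week 0 and 7.11, 7.63 and 6.92 at week 12. Its vehicle levels were 5.91, 5.85 and 6.54 at week 0 and 5.80, 6.43 and 5.89 at week 12, so all 3 baricitinib week 12 arrays lay above the other 9. The difference from week 0 was 0.83 ± 0.28 (SE), with a limma adjusted p of 0.220, and from vehicle at week 12 it was 1.18 ± 0.28, with an adjusted p of 0.105. Pecam1 (chr11:106654213-106715281), which joins endothelial cells and is also carried by leukocytes and platelets, spread more widely. It measured 5.91, 4.15 and 5.78 at baricitinib week 0 and 5.46, 7.08 and 7.02 at week 12, and the groups overlapped. The difference was 1.24 ± 0.57, with an adjusted p of 0.410 by limma, and 0.58 with the Gapdh difference as a covariate. The 3 arrays with the smallest Gapdh difference had the 3 highest Pecam1 levels, which include 6.61 on vehicle week 0 replicate 1.

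Cdh5 (chr8:104101613-104144504), the adherens junction cadherin that defines the endothelium, differed little. Its brighter probe set had group means between 4.75 and 5.24, near or below the median of all probe set means, 5.24. Its levels were 4.84, 5.06 and 5.03 at baricitinib week 0 and 5.72, 5.35 and 4.65 at week 12, which overlapped. The difference was 0.26, with a 95% interval of -0.36 to 0.89 and a limma adjusted p of 0.793. The dimmer probe set lay between 2.5 and 3.66 on all arrays and differed by -0.03, with an interval of -0.76 to 0.70.

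Of the VEGF receptors, Kdr was higher and Flt1 lower after baricitinib, and neither passed. Kdr (chr5:75932827-75979072) measured 6.31, 6.35 and 5.74 at baricitinib week 0 and 6.56, 7.14 and 7.26 at week 12, with no overlap. Its vehicle levels were 6.21, 5.82 and 6.67 at week 0 and 6.03, 6.42 and 6.10 at week 12, so 1 vehicle week 0 array reached the range of baricitinib week 12. The difference from week 0 was 0.85 ± 0.29 (SE), with a limma adjusted p of 0.218, and that from vehicle at week 12 was 0.80 ± 0.29, with an adjusted p of 0.307.

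Flt1 (chr5:147561604-147726438) had the brightest probe set, 1451756_at, at 7.38, 8.20 and 9.36 at baricitinib week 0 and 6.49, 7.47 and 7.35 at week 12. In the vehicle mice this probe set measured 9.72, 8.86 and 7.52 at week 0 and 8.84, 7.55 and 7.26 at week 12. It was lower at week 12 in all 6 mice, treated or not, and the week 0 arrays of either treatment spread widely. The difference with baricitinib was -1.21 ± 0.63 (SE), with a limma adjusted p of 0.494. The other probe sets gave -0.50 (1419300_at), -1.95 (1440926_at) and -1.78 (1454037_a_at), with adjusted p-values of 0.694, 0.121 and 0.219.

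On 1440926_at, Flt1 lay below all other arrays after baricitinib, at 5.29, 4.75 and 4.36. The baricitinib week 0 arrays measured 5.39, 7.75 and 7.11, and the 6 vehicle arrays 5.66 to 7.45. On 1454037_a_at the baricitinib week 12 levels were 4.46, 4.21 and 4.38, again below the other 9 arrays, as were 3.07% of all probe sets, while replicate 1 at week 0 was already at 4.76. For both probe sets mouse 1 thus started low and differed by -0.10 and -0.29 between the weeks, against -2.52 to -3.0 in mice 2 and 3. Without baricitinib week 0 replicate 1, the difference over time was -2.63 on 1440926_at, which was then called lower (limma adjusted p 0.03916), and -2.47 on 1454037_a_at (0.0837). With array weights 1440926_at was also called, at -1.39. That setting did not converge and called 5998 of all 45037 probe sets higher and 5279 lower. Under it, the change with baricitinib minus that with vehicle turned positive on this probe set. Against vehicle at week 12 the 2 probe sets differed by -1.35 and -1.5, with limma adjusted p-values of 0.375 and 0.377. At week 0 they already differed from vehicle by -0.32 and -0.93. In the vehicle mice they differed by -0.92 and -1.20 over time, and none of these passed. The change with baricitinib differed from that with vehicle by -1.03 and -0.58 on these probe sets, with adjusted p-values of 0.933 and 0.980.

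**Figure D2:**
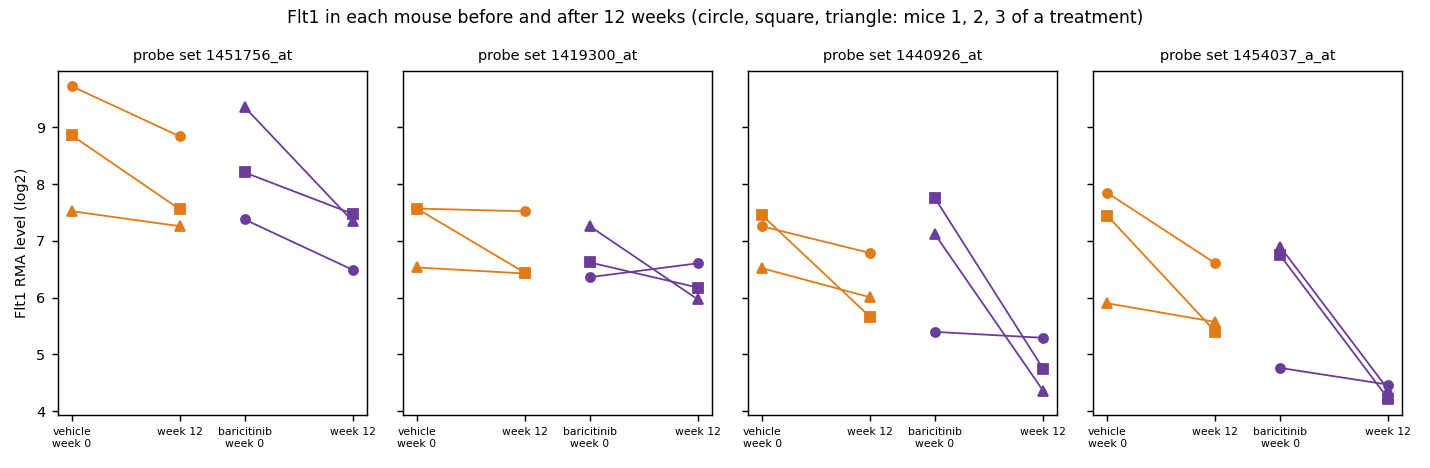
Flt1 RMA level (log2) at week 0 and week 12, 1 panel for each of its 4 probe sets, with a line for each mouse (orange for vehicle, purple for baricitinib, and circle, square and triangle for mice 1, 2 and 3). On 1440926_at and 1454037_a_at the 3 baricitinib mice end between 4.21 and 5.29, below every other array, and baricitinib mouse 1 is already low at week 0.

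The angiopoietin receptors differed from each other. Tie1 (chr4:118471191-118489849) measured 6.04, 4.69 and 5.23 at baricitinib week 0 and 7.26, 7.0 and 6.67 at week 12. Its vehicle levels were 5.79, 5.32 and 5.70 at week 0 and 5.47, 6.55 and 5.70 at week 12, so all 3 baricitinib week 12 arrays lay above the other 9, with 6.55 and 6.67 as the nearest values. The difference from week 0 was 1.65 ± 0.37 (SE), or 3.15-fold, with a limma adjusted p of 0.0572, just short of the threshold, and that from vehicle at week 12 was 1.07 ± 0.37, with an adjusted p of 0.280. Tek (chr4:94739086-94874976) overlapped, at 8.06, 8.48 and 7.38 at baricitinib week 0 and 9.20, 8.21 and 8.16 at week 12. The Tek difference was 0.55 ± 0.45, with an adjusted p of 0.705 by limma. With the Gapdh difference as a covariate it was 1.09, with an adjusted p of 0.03742, and under no other alternative run for this comparison did Tek pass.

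**Figure D3:**
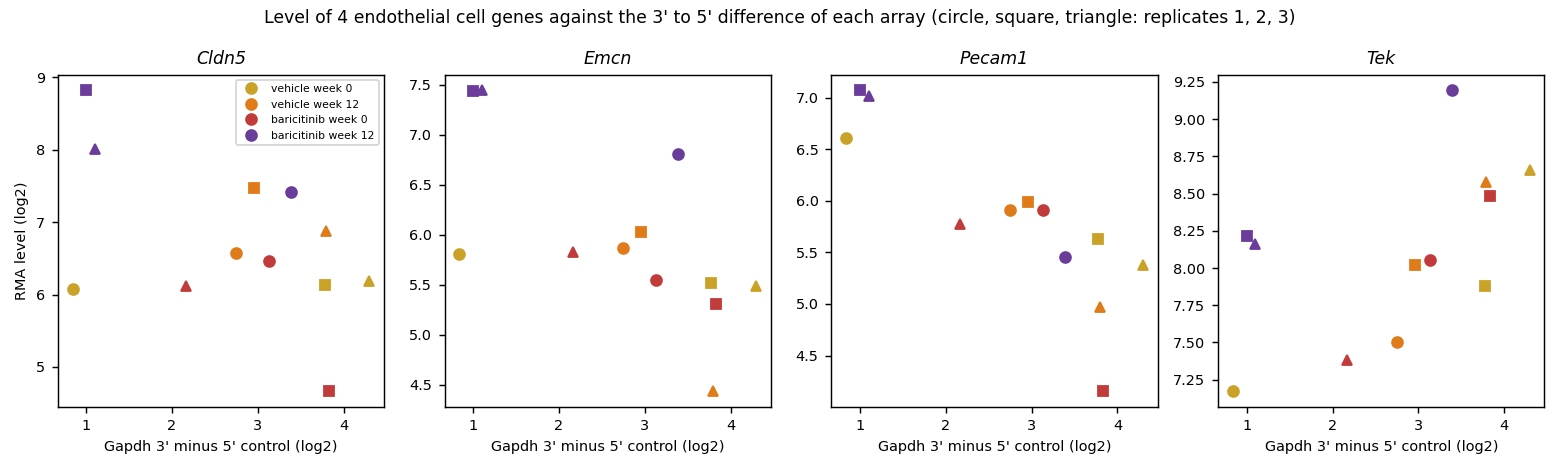
RMA level (log2, y axis) of Cldn5, Emcn, Pecam1 and Tek on the 12 arrays against the Gapdh 3′ minus 5′ difference of the array (log2, x axis), with colours for groups and circle, square and triangle for replicates 1, 2 and 3. Baricitinib week 12 replicates 2 and 3 lie at 1.00 and 1.1 and replicate 1 at 3.39, where Cldn5, at 7.42, and Emcn, at 6.81, are the lowest of the 3.

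Emcn (chr3:137341062-137431069) had the largest difference from vehicle at week 12 among the member probe sets. It measured 5.55, 5.31 and 5.83 at baricitinib week 0 and 6.81, 7.43 and 7.45 at week 12, against 5.81, 5.51 and 5.49 at vehicle week 0 and 5.86, 6.03 and 4.43 at vehicle week 12. The lowest baricitinib week 12 level, 6.81, was above the highest of the other 9 arrays, 6.03. The difference from week 0 was 1.67 ± 0.38 (SE), or 3.18-fold, with a limma adjusted p of 0.0612. From vehicle at week 12 it was 1.79 ± 0.38, or 3.46-fold, with an adjusted p of 0.0690, and 2.00 with an adjusted p of 0.04731 without the 2 arrays of lowest correlation. That removal left out baricitinib week 12 replicate 1, the lowest of the 3 at 6.81. Emcn was called in 6 of 22 alternatives for this comparison, with limma adjusted p-values up to 0.2506. The change with baricitinib exceeded that with vehicle by 1.83 ± 0.54, with an adjusted p of 0.464.

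Egfl7 (chr2:26581083-26592682) was higher at baricitinib week 12 on all 4 of its probe sets. The brightest, 1451428_x_at, measured 6.79, 5.80 and 6.68 at baricitinib week 0 and 7.46, 7.59 and 7.28 at week 12, and lay between 6.53 and 6.83 on the 6 vehicle arrays. The baricitinib week 12 arrays were thus above all others, by a small margin against the vehicle arrays. The differences from week 0 were 1.02, 0.86, 1.17 and 0.63, with limma adjusted p-values of 0.0998, 0.104, 0.107 and 0.272. The x in the names of 1451428_x_at and 1435823_x_at, the sources of 1.02 and 1.17, marks probes that can also bind other transcripts, while 1451427_a_at gave a difference from vehicle at week 12 of 0.75 ± 0.22 (SE), with an adjusted p of 0.201. On this probe set every baricitinib mouse was higher at week 12 and no vehicle mouse higher. On the other Egfl7 probe sets every vehicle mouse was higher at week 12 too.

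**Figure D4:**
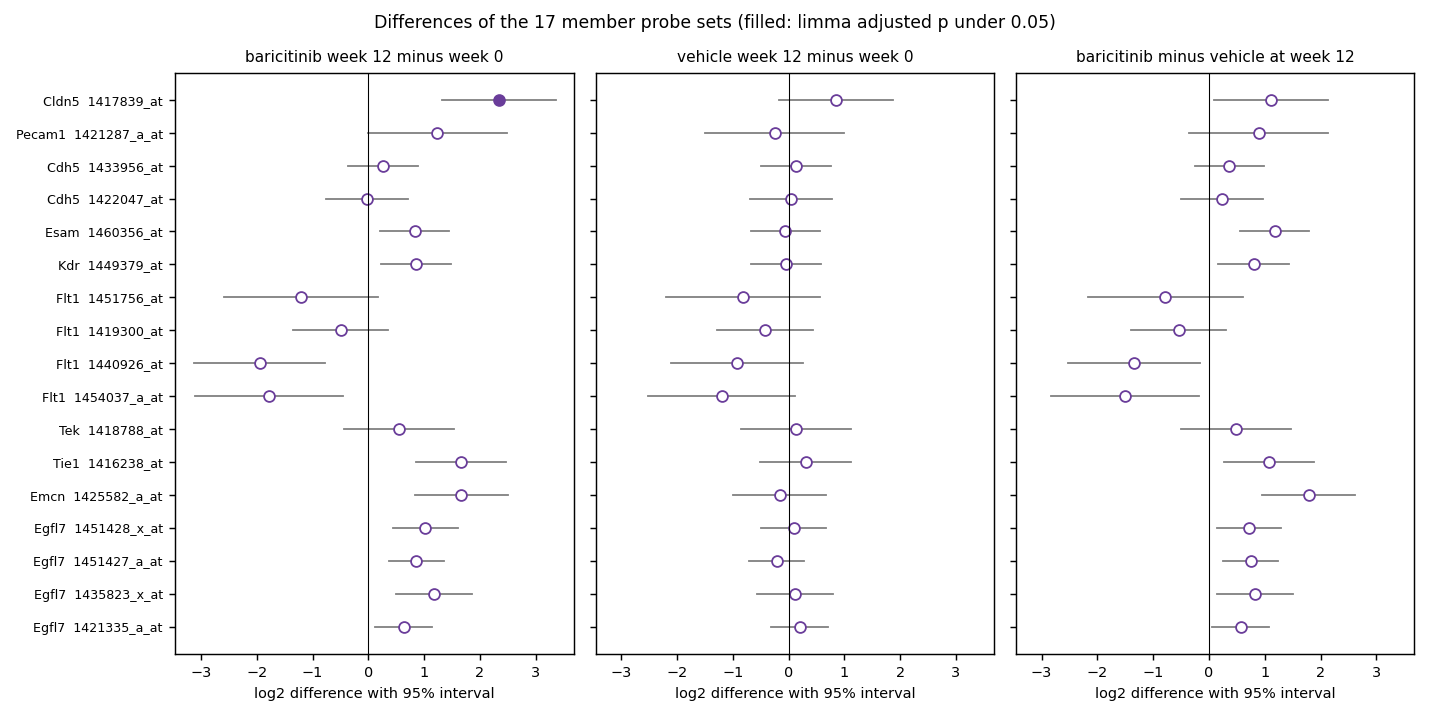
log2 differences (x axis, with 95% intervals from limma) of the 17 member probe sets for baricitinib week 12 minus week 0, vehicle week 12 minus week 0, and baricitinib minus vehicle at week 12, with filled points for an adjusted p under 0.05. Cldn5 in the first panel, at 2.34, is the filled point, and the 4 Flt1 probe sets lie left of 0 in all panels.

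Compared with vehicle at week 12, 9 of 10 genes were higher after baricitinib, against 45.2% of all genes, with a median log2 difference of 0.85 over the members and -0.04 over all genes. By limma 0 of 17 probe sets were called, where 0.151% of all probe sets were called higher and 0.429% lower. Without adjustment, at a p under 0.05, 9 were higher and 2 lower, against 4.88% and 6.01% of all probe sets. Those 9 again came from 6 genes, with all 4 Egfl7 probe sets among them, and the 2 lower ones were of Flt1. For 5 genes, namely Esam, Kdr, Tie1, Emcn and Egfl7, the 3 baricitinib arrays lay above the 3 vehicle arrays, against 6.7% of all genes. For Esam, Tie1, Emcn and Egfl7 they lay above all other 9 arrays, as did 2.74% of all genes. This comparison shares the baricitinib week 12 arrays with the one over time, so it is no separate evidence.

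Neither control comparison gave a call. Over time in the vehicle mice 0 of 17 probe sets passed, with 0 at an unadjusted p under 0.05, where 0% of all probe sets were called and 1.24% and 1.22% were higher and lower unadjusted. Between the treatments at week 0 again 0 passed, with 0 unadjusted, where 0% of all probe sets were called and 0.44% and 0.688% passed unadjusted. The members' median at week 0 was -0.15, with 3 of 10 genes higher in the mice that would receive baricitinib, against 50.8% of all genes. The change with baricitinib against that with vehicle also gave 0 calls by limma, as for all probe sets, with 8 member probe sets above 0 and 0 below at an unadjusted p under 0.05, against 3.02% and 3.26% of all probe sets. Those 8 probe sets were of 6 genes. The change with baricitinib was the larger for 9 of 10 genes, against 43.6% of all genes. A difference in response between the treatments was thus not shown for any member at the adjusted threshold.

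The levels of the members followed each other over the 12 arrays to unequal degrees. Pearson's r with the mean of the other members was 0.85 for Cldn5, 0.86 for Tie1, 0.86 for Emcn and 0.87 for Egfl7. It was 0.77 for Esam, 0.72 for Kdr and 0.67 for Pecam1, but 0.22 for Cdh5, 0.06 for Tek and -0.61 for Flt1. These values describe 12 arrays that share 6 mice and 4 groups. The genes outside the members whose levels were most like their mean were Tns2, Rdm1, Thbd, Lama4 and Stard13, with r from 0.956 to 0.949, followed by Bcat2, Nyap1, Gm10336, Ifitm6 and Hint2, at 0.947 to 0.937, among 12320 genes. Since the members' mean was highest on the baricitinib week 12 arrays, genes chosen this way are high there by the choice.

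Of further vascular endothelial genes, 2 of the 34 measured were called higher with 0 lower, where 0.5% of all genes were called higher and 1.55% lower. Thbd (thrombomodulin), the anticoagulant receptor of the vessel wall, measured 9.36, 9.02 and 9.10 at baricitinib week 0 and 10.29, 10.66 and 10.80 at week 12, against 8.89 to 9.57 on the 6 vehicle arrays. It rose by 1.42 ± 0.24 (SE), with a limma adjusted p of 0.01763, and was 1.32 above vehicle at week 12, with an adjusted p of 0.03617. All 3 baricitinib week 12 arrays lay above the other 9. Which cells of the whole skin made this Thbd RNA was not tested. Podxl, a sialomucin of the endothelial surface that some epithelia also make, rose by 1.2 with an adjusted p of 0.03596, but its second probe set differed by 0.05. Over the list 29 of 34 genes were higher, with a median of 0.54, but in the vehicle mice 25 of 34 were higher at week 12 as well, with a median of 0.26. The change with baricitinib minus that with vehicle had a median of 0.27, with 23 of 34 genes above 0. The largest difference with baricitinib was 1.70 for Adgrl4, with an adjusted p of 0.108.

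The ligands and regulators gave no call in the same comparison. Of 15 VEGF and angiopoietin ligands and co-receptors 0 were called, with a median of 0.03 and 8 of 15 higher. Vegfa, the main ligand of Kdr and Flt1, differed by -1.39 with a limma adjusted p of 0.155, and Flt4, the VEGF receptor of lymphatic vessels, by 1.76 with an adjusted p of 0.0845. In the vehicle mice the same Flt4 probe set differed by 1.33 over time (limma adjusted p 0.9999), and the treatments differed by 0.36 at week 12 (0.883). Of 18 endothelial transcription factors, several of the ETS family among them, 0 were called, with a median of 0.11 and the largest difference for Foxc2, 1.96 with an adjusted p of 0.069. Of 11 Notch genes 0 were called, with a median of 0.10 and the largest difference for Jag2, at 1.12. Among 8 lymphatic genes 0 were called and 6 were higher, with a median of 0.54. With vehicle, 5 of these 8 were higher over time, with a median of 0.05. The change with baricitinib minus that with vehicle had a median of 0.09 for them, with 4 of 8 above 0 and 4 below.

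Among 8 genes of activated endothelium, 1 was called lower. Vcam1, the adhesion molecule that inflamed endothelium shows to lymphocytes and that other skin cells also make, measured 9.18, 9.24 and 8.92 at baricitinib week 0 and 7.72, 7.38 and 6.84 at week 12. Its vehicle levels lay between 8.10 and 9.18, above all baricitinib week 12 arrays. It fell by 1.80 on the log2 scale, with a limma adjusted p of 0.02283 on its brightest probe set, while its other probe sets differed by 0.00 and -0.43. The list's median was -0.22, with 3 of 8 genes higher. In the vehicle mice its median over time was -0.15, with 2 of 8 genes higher. The change with baricitinib minus that with vehicle was above 0 for 4 of 8 genes and below 0 for 4.

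Pericytes and smooth muscle cells wrap the vessels that endothelium lines, and 13 of their 16 genes were higher after baricitinib, with a median of 0.69. Mcam (CD146), which endothelial cells carry too, measured 7.53, 7.58 and 7.38 at baricitinib week 0 and 8.82, 8.87 and 8.64 at week 12, with 7.15 to 7.82 on the vehicle arrays. It rose by 1.28 ± 0.23 (SE), with a limma adjusted p of 0.02438, and was 1.26 above vehicle at week 12, with an adjusted p of 0.03879. The other 15 genes did not pass, with Myh11, the smooth muscle myosin, the furthest from 0 at 1.39.

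Markers of other skin compartments moved between the same groups. Adipocyte genes averaged 9.90 to 10.7 on the baricitinib week 12 arrays and 7.25 to 9.26 on the other 9, with 7 of 7 higher after baricitinib, a median of 1.99 and a call for Cidec (2.76, limma adjusted p 0.01763). In the vehicle mice 7 of 7 adipocyte genes were higher over time too, with a median of 0.53. Hair shaft and inner root sheath keratins averaged 4.60 to 6.31 on the baricitinib week 12 arrays and 6.93 to 11.5 on the others, with 11 of 11 lower, a median of -5.11 and 7 calls (Krt31, Krt35, Krt82, Krt71, Krt73, Krt27 and Krt28). With vehicle, 8 of these 11 were lower over time, with a median of -0.38. At week 0, 11 of 11 were higher in the mice that would receive baricitinib, with a median of 1.15. Against vehicle at week 12 the median was -3.32, with 2 calls. The study reported hair regrowth in mice given baricitinib and none seen with vehicle. The part of the fat layer and of the hair cycle stage in the levels of the endothelial genes was not tested. Leukocyte genes averaged 7.08 to 7.57 against 7.86 to 8.37, with 7 of 9 lower, a median of -0.29 and a call for Cd8a, the cytotoxic T cell coreceptor (-4.29, limma adjusted p 0.009121). In the vehicle mice 6 of 9 leukocyte genes were lower over time as well, with a median of -0.22. Between the treatments at week 12 the median of this list was -0.025, with 4 of 9 genes higher after baricitinib.

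Platelet genes, which share Pecam1 and other proteins with the endothelium, gave 0 calls of 6, with a median of -0.04 and the largest difference for Gp1bb, at -1.75. Of 3 erythrocyte genes, Slc4a1 fell on its brightest probe set (-3.95, limma adjusted p 0.02623), while its other probe sets differed by -2.37 and -0.15 and did not pass. The other erythrocyte genes, Hba-a1 and Alas2, differed by 0.34 and 0.46. Of 8 fibroblast genes 0 were called, with a median of 0.19 and Dcn the furthest from 0 at 1.38, and of 10 skeletal muscle genes 0 were called, with a median of -0.09 and Myh4 the furthest at -3.12. In the vehicle mice Myh4 differed by -4.96 between the weeks, with an adjusted p of 0.9999 by limma. Of 7 epidermal keratinocyte genes, Krt15, a keratin of basal and follicle stem cells, rose (2.36, limma adjusted p 0.02274), with a median of 0.07. The SD of Myh4 was 0.20 at baricitinib week 0 but 3.57 at baricitinib week 12, where its levels ran from 5.94 to 13.1.

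**Figure D5:**
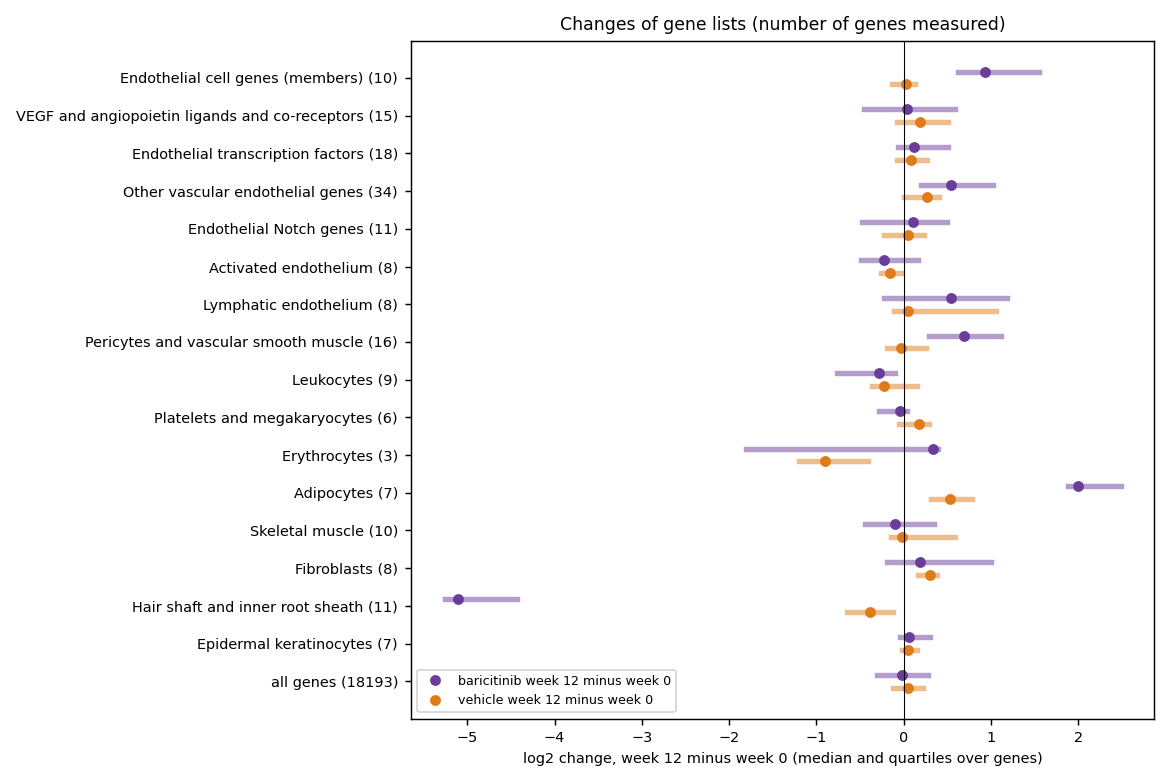
Median (points) and quartiles (bars) of the log2 change from week 0 to week 12 over the genes of each list (y axis, number of genes measured in brackets), in purple for baricitinib and in orange for vehicle. The endothelial members lie at 0.94 with baricitinib and 0.02 with vehicle, adipocyte genes at 1.99 and hair keratins at -5.11 with baricitinib, and all genes near 0.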

How the data were processed

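Skin RNA of 6 mice at weeks 0 and 12 was amplified, labelled and hybridized to 12 arrays. The authors normalized the arrays of this experiment by RMA (version not given in the sources used here) and deposited log2 values, which were used unchanged. The study's methods state that 1 baricitinib array of this experiment at each week, and 1 control array at baseline of an experiment it does not name, were left out of its own analysis after quality control. Which arrays these were is not given in the sources used here, and 3 arrays of each group were analysed. The deposited values hold no detection call and no probe counts, so precision is set by how many arrays there are. Of all probe sets, 64 controls were left out. Symbols came from the platform annotation, with 34945 probe sets of 1 symbol, 932 of several and 9160 of none, and gene positions from RefSeq (GRCm38.p6).

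limma 3.58.1 in R 4.3.3 fitted a mean for each of the 4 groups over the 12 arrays, with moderated variances (8 residual and 3.54 prior degrees of freedom). The Benjamini-Hochberg adjustment ran over 45037 probe sets in each comparison, and an adjusted p under 0.05 was called. P-values rest on 3 mice a group. Each SE is from this fit, with a spread shared by all 12 arrays and no pairing. It is not the spread of the changes among the mice of a treatment. The mouse numbers pair the weeks, and the deviations of a mouse's arrays from their group means correlated at -0.362, -0.508 and 0.467 with baricitinib and 0.439, -0.134 and 0.491 with vehicle. The primary model has no mouse term, and the mouse as a block was an alternative. The members, the 15 other gene lists (169 of 181 genes measured) and the tests were chosen with earlier results of these data known. Outside the members, genes named are those called, the largest difference of each list, and the 10 most like the members' mean. Vegfa was named after its value was seen. The code was tested on simulated data. Alternatives covered filtering, normalization, array weights, the mouse, the groups in the model, gene means and leaving out arrays. The Gapdh covariate and the removal of the 2 arrays of lowest correlation were chosen after seeing the data.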

Additional observations from a re-analysis of the deposited data

Results flagged for a closer look

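On 1 Egfl7 probe set (1451427_a_at) every baricitinib mouse was higher at week 12 than at week 0 while every vehicle mouse was lower, mouse 3 by as little as -0.0020, and the 2 changes differed by 1.07 on the log2 scale. The interaction term of limma gave an adjusted p of 0.472, so the difference did not pass, and no cause was tested. The other Egfl7 probe sets did not show opposite directions, since every vehicle mouse was higher at week 12 on them. The vehicle changes were 0.020 to 0.13 on 1451428_x_at, 0.063 to 0.16 on 1435823_x_at and 0.014 to 0.32 on 1421335_a_at.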

How the results depend on the processing

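The median difference of the members stayed between 0.82 and 1.07 for baricitinib over time under 23 alternatives and between 0.69 and 1.00 against vehicle at week 12 under 22. The number of member probe sets called was less stable. For baricitinib over time it was 3 with probe sets at or above the median level, 3 with the Gapdh covariate, 4 genes with the mean of a gene's probe sets, 11 with array weights, 0 with only the groups compared and 0 to 3 with 1 array left out. Among all 45037 probe sets the main fit called 163 higher and 394 lower there. Array weights called 5998 and 5279, the Gapdh covariate 718 and 950, and only the groups compared 9 and 88. The level filter called 231 and 502 of 22519 probe sets, and gene means 208 and 384 of 18193 genes. Against vehicle at week 12 the number of member probe sets called was 1 with the filter, with cyclic loess, with gene means and without the 2 arrays of lowest correlation, 12 with array weights and 0 to 1 with 1 array left out. Among all 45037 probe sets the main fit called 68 higher and 193 lower in that comparison. Array weights called 5423 and 5782, and the fit without the 2 arrays 443 and 565. Array weights, which did not converge, gave 4 calls for vehicle over time, 3 at week 0 and 6 for the difference of the changes, and medians of 0.25, 0.15 and 0.64. Of all 45037 probe sets they called 2411 higher and 2575 lower for vehicle over time. At week 0 they called 2396 and 3316, and for the difference of the changes 3245 and 3345. The week 0 median was 0.060 without the 2 arrays and -0.28 to 0.060 with 1 left out. The causes of these shifts were not tested.

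When the mouse entered as a fixed replicate block, which pairs the weeks, 0 member probe sets were called for baricitinib over time, and the adjusted p of Cldn5 was 0.1276 by limma. No other member was called under it, and the mouse as a random block left 1 call.

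Among the member values for baricitinib over time, against vehicle at week 12 and for the difference of the changes, direction turned for those of Cdh5 and Flt1. For the dimmer Cdh5 probe set, baricitinib over time gave 0.040 with cyclic loess, 0.28 with the Gapdh covariate and -0.35 to 0.27 with 1 array left out. Against vehicle at week 12 it gave -0.10 without the 2 arrays and -0.10 to 0.39 with 1 left out, and the difference of the changes gave 0.028, 0.29 and -0.39 to 0.23. The brighter probe set gave -0.059 without the 2 arrays and -0.10 to 0.43 with 1 left out for that difference. With array weights, the difference of the changes for the Flt1 probe sets was 0.29 (1451756_at), 0.28 (1419300_at), 0.036 (1440926_at) and 0.31 (1454037_a_at), and with 1 array left out it was -0.90 to 0.20, -0.26 to 0.29 and, for 1454037_a_at, -1.26 to 0.0058.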
